A study of Mus musculus with 58 samples.

Results

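The major cluster of histone genes of the mouse lies on chromosome 13, with histone genes at both ends and a long stretch of vomeronasal receptor genes between them. It was examined here as all 5 kb windows tiled from the chromosome start between positions 21700001 and 23900000 (mm9). These were 440 windows of 527801 on the autosomes and X, taken by position with no threshold on a measured value. The members and boundaries were, however, chosen with earlier results of these data known. Within the region, the first 450 kb (90 windows) were taken as the proximal end, the last 300 kb (60 windows) as the distal end, and the 290 windows between as the middle. The boundaries are round positions set from the known gene order, without an annotation of the build of the tracks. Which genes each segment holds was therefore not determined, and the segments are named for the gene order only.

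Acetylation of histone H3 at lysine 27 (H3K27ac) was profiled in full-grown mouse oocytes (FGO) by STAR ChIP-seq, which maps chromatin marks from little starting material, with an antibody labelled as H3K27ac (Active Motif). Control oocytes had the genotype Setd2+/-, so they too carried 1 mutant allele, and knockout oocytes, from a maternal knockout, were Setd2-/-; transcripts of Setd2 were not analysed here. The driver of the deletion and the number of animals are not given in the labels of these samples, and the treatment text shared by the series names females 8 weeks old given PMSG and hCG. Each genotype had 2 replicates, which the authors pooled into 1 track, and 54 of the 58 samples of the series were not analysed here. The purpose stated for the knockout oocytes is to relate histone modifications to one another. Values are read densities scaled to bin length and to library size (RPKM), so they give H3K27ac relative to the size of each library and not in absolute amounts. With 1 pooled track per genotype no spread between replicates could be measured and no test was possible. The 95% intervals given cover counting error only, and they are too narrow because reads fell less evenly than independent counts would. They are exact binomial (Clopper-Pearson) intervals with 1 exception. The interval of the ratio of the ends over that of the middle is a normal approximation on the log scale.

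The genes that the ends are named for encode the replication-dependent histones, which package newly made DNA. Most of them have no introns, their transcripts end in a stem loop in place of a poly(A) tail, and in dividing cells they are transcribed mainly in S phase. Growing oocytes do not replicate DNA, yet they build stores of histone transcripts and proteins for the early embryo. The genes that the middle is named for encode receptors of the V1R family, which sensory neurons of the vomeronasal organ use to detect pheromones. H3K27ac marks active promoters and enhancers, and SETD2 is the enzyme that places trimethylation on lysine 36 of histone H3 (H3K36me3) along transcribed genes.

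In RefSeq's table for build GRCm38.p6, used here for names and order only, the cluster was taken from H2bc13 to H1f1. The histone genes H2bc1 and H2ac1, which lie further out beyond H1f1, were left out. The stretch taken holds 52 protein-coding histone genes. Before the vomeronasal receptor genes lie 23 of them: 1 H1 gene (H1f5), 7 H2A, 8 H2B, 2 H3 and 5 H4 genes. After the receptor genes lie 29: 5 H1, 5 H2A, 6 H2B, 7 H3 and 6 H4 genes. The receptor stretch holds 36 protein-coding receptor genes and 43 receptor pseudogenes. The table also places 77 tRNA genes in the cluster. Of these, 32 lie before the receptors, all but the last of them between histone genes. The 45 after the receptors all lie ahead of H4c8, the first histone gene on that side. Other protein-coding genes lie before and after the receptors. Zfp184 and Pom121l2 lie before the receptors together with Prss16, which encodes a thymic serine protease. Zfp322a and Abt1 lie after them together with the butyrophilin genes Btn1a1 and Btn2a2, all ahead of H4c8. Hfe, a regulator of iron uptake, lies among the histone genes that follow.

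Promoters of the 2 kinds of gene, histone and receptor, are shown because the ends and the middle are named for them. Each line gives the 200 bases upstream of the annotated start, from RefSeq (GRCm38.p6), on the gene's strand. The positions are chr13:21716184-21716383 for H2bc13 (minus strand), chr13:22042998-22043197 for H2bc11, chr13:22556001-22556200 for Vmn1r204, chr13:23530844-23531043 for H4c8 and chr13:23763468-23763667 for H1f1, the last 4 on the plus strand. These positions belong to GRCm38.p6 and cannot be set against the mm9 positions of the tracks, so no value below is assigned to a single gene. H2bc13 and H2bc11 are the outermost and innermost histone genes before the receptors. H4c8 and H1f1 are the innermost and outermost of the listed group after them, and Vmn1r204 is a receptor gene. Capitals mark CCAAT on either strand and TATAAA on the gene's strand.
H2bc13: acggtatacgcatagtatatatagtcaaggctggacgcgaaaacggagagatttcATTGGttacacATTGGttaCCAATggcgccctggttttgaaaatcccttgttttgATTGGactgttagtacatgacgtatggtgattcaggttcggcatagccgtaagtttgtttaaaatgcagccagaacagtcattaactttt
H2bc11: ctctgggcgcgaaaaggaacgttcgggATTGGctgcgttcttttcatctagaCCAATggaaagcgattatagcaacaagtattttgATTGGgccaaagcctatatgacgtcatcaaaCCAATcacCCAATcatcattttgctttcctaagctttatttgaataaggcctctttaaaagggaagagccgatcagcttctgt
Vmn1r204: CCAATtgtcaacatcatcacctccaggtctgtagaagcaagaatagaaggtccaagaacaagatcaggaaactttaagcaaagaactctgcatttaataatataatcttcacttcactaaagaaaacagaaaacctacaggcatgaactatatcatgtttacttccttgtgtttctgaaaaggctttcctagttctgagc
H4c8: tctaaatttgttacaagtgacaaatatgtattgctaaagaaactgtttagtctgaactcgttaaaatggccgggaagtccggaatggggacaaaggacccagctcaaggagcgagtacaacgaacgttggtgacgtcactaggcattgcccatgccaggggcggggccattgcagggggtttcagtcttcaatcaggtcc
H1f1: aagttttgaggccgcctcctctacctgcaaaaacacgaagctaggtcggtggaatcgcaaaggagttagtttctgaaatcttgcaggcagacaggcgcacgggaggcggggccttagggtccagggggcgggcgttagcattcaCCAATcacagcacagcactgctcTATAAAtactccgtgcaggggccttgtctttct

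The H2B promoters carry CCAAT 4 times (H2bc13) and 5 times (H2bc11) in these 200 bases, H1f1 carries 1 CCAAT and 1 TATAAA, and H4c8 carries neither. Over 250 bases upstream, CCAAT on either strand was found in 41 of the 49 histone promoters in the table (83.7%). It was found in 11 of 33 vomeronasal receptor promoters (33.3%) and in 34.5% of all 27025 promoters of the same length. All 6 H1, 12 H2A, 13 H2B and 7 H3 promoters had it, against 3 of 11 H4 promoters. TATAAA on the gene's strand was found in 19 histone promoters (38.8%), in 5 receptor promoters (15.2%) and in 8.12% of all promoters. The octamer ATTTGCAT on either strand, known from H2B promoters, was found in 8 histone promoters (16.3%), in 3 receptor promoters and in 1.61% of all. Of those 8, 4 were H2B and 4 were H2A promoters. Histone promoters held a median of 10 CpG dinucleotides and receptor promoters a median of 1, against 6 over all promoters. The share with CCAAT was 78.3% before and 88.5% after the receptor genes. H2A and H2B genes often lie as divergent pairs with a shared promoter, so these counts are not independent. A match describes letters in a window and is not evidence of a bound factor.

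H3K27ac was higher at the histone gene ends than in the middle in both genotypes. In the control pool the proximal end had a mean of 0.488 RPKM, the middle 0.285 RPKM and the distal end 0.714 RPKM. In the knockout pool the same segments had 0.578, 0.327 and 0.881 RPKM. The 2 ends together were 2.03 times the middle in control (95% counting interval 1.98 to 2.08) and 2.14 times in knockout (2.09 to 2.19). Against the autosomal mean (0.374 and 0.387 RPKM), the distal end stood at 1.91 times in control and 2.28 times in knockout. The proximal end stood at 1.31 and 1.49 times that mean, and the middle at 0.762 and 0.844 times. The distal end exceeded the proximal end 1.46-fold in control and 1.53-fold in knockout.

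**Figure D1:**
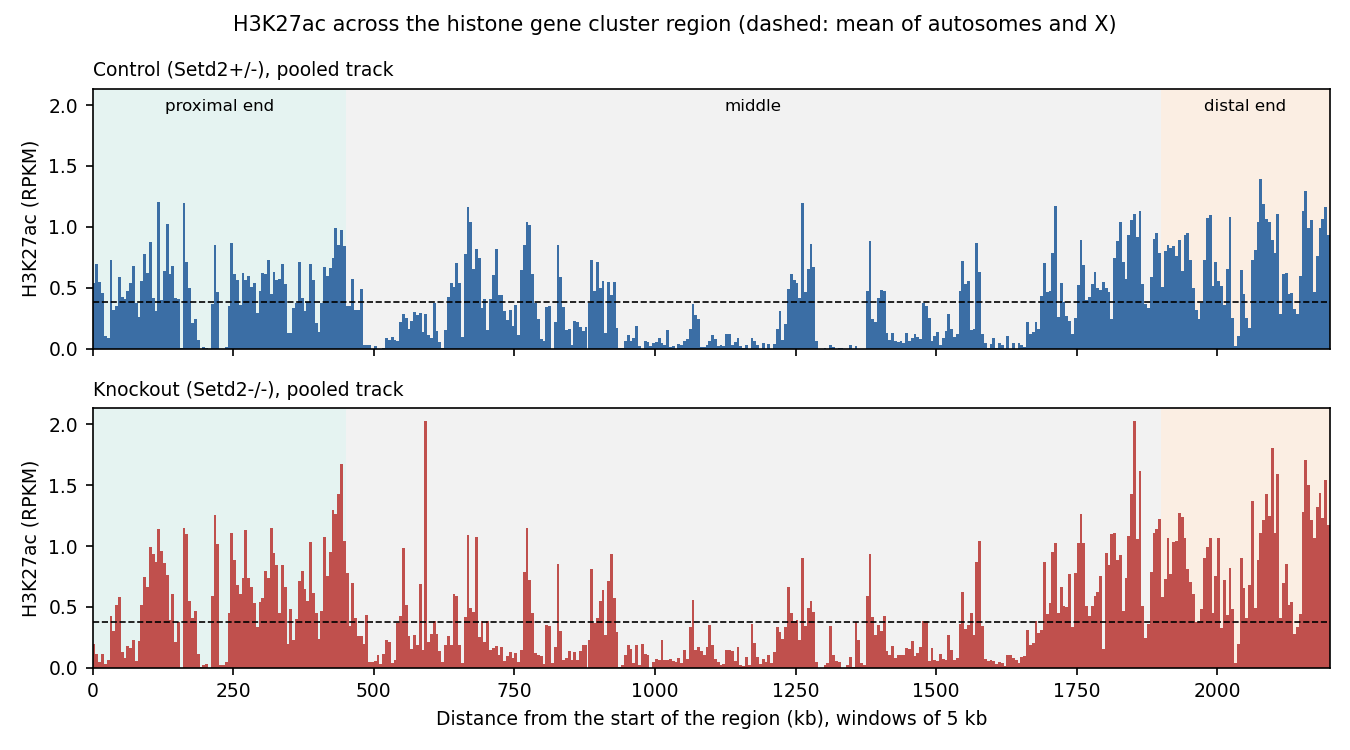
H3K27ac (RPKM, y axis) in each 5 kb window against distance from the start of the region (kb, x axis), in the control pool (top) and the knockout pool (bottom). Shading marks the proximal end, the middle and the distal end, and the dashed line is the mean of autosomes and X, 0.379 RPKM in both pools; windows above it fill much of the ends, while the middle has isolated groups of them and a rise over its last 200 kb.

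The contrast lay in how many windows were well covered more than in the single highest window. Windows at 3 times the mean of their pool or more made up 4.00% of the ends and 1.03% of the middle in control. In knockout they made up 16.7% and 2.76%. At the ends, 108 of 150 windows in control and 115 in knockout were at or above the mean of autosomes and X (0.379 RPKM in each pool). In the middle, 90 and 89 of 290 windows were, and over the autosomes 42.5% and 36.04% were. The median window had 0.567 RPKM at the ends and 0.163 RPKM in the middle in control, and 0.674 and 0.191 RPKM in knockout. The highest window was nearly as high in the middle as at the ends in control, at 1.19 and 1.39 RPKM. The middle was more uneven, with a coefficient of variation over windows of 1.03 in control, against 0.542 at the ends. In bins of 100 bp, reads were present in 67.3% of the distal end, 55.1% of the proximal end and 33.6% of the middle in control. In knockout those shares were 61.4%, 44.8% and 29.1%, each lower than in control although the mean RPKM of each segment was higher.

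Windows at or above the mean often lay side by side, at the ends and in the last 200 kb of the middle. Over the region, 163 windows were at or above the mean in both pools, and they fell into 39 runs with a median length of 15 kb. The longest run covered 80 kb, from 23580001 to 23660000 across the boundary of the distal end, at 0.778 RPKM in control and 0.947 RPKM in knockout. Further runs at the distal end covered 50 kb from 23760001 to 23810000 (1.00 and 1.22 RPKM) and 55 kb from 23845001 to the last window (0.948 and 1.27 RPKM). At the proximal end the longest runs were 50 kb, from 21995001 to 22045000 (0.587 and 0.753 RPKM), and 40 kb, from 22110001 to 22150000 (0.791 and 1.19 RPKM). The last 200 kb of the middle held runs as long, of 55 kb from 23515001 to 23570000 (0.874 and 1.08 RPKM) and of 45 kb from 23450001 to 23495000 (0.561 and 0.747 RPKM). In these 7 runs the knockout pool was higher, by 1.22 to 1.5 times. The runs are long compared with single histone genes, which are short and lie close together in the table.

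The 2 ends met the middle in different ways. At the proximal side, the 50 kb before the boundary had 0.684 RPKM in control and 1.02 RPKM in knockout, the next 50 kb had 0.248 and 0.347 RPKM, and the 50 kb after that 0.0632 and 0.166 RPKM. On the distal side there was no such step. The last 200 kb of the middle already had 0.620 RPKM in control and 0.824 RPKM in knockout, in 4 blocks of 50 kb that rose from 0.448 to 0.759 RPKM in control and from 0.651 to 1.01 RPKM in knockout. Those 200 kb were thus more like the distal end than like the rest of the middle, which had 0.231 and 0.247 RPKM. Without them, a choice made after their values were seen, the ends were 2.50 times the middle in control and 2.83 times in knockout. Whether those 200 kb hold histone genes of the table, or the tRNA and other genes listed between the receptors and H4c8, was not determined, as the builds differ.

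The middle held deep gaps in both pools. In stretches of 1 kb windows, 16 kb from 23028001 to 23044000 had 1 control read and no knockout read, and 15 kb from 22987001 to 23002000 had 1 read in each pool. The block from 23000001 to 23050000 was the poorest of the region in control, with 14 reads, against 107 in knockout. Gaps occurred at the ends too. From 21890001 to 21899000 there were no control reads and 2 knockout reads, and from 23731001 to 23738000 no control reads and 1 knockout read. Of the 440 windows, 27 had no control read, 7 no knockout read and 4 neither, and a count of 0 allows up to 3 reads. Reads placed at repeats and near-identical copies depend on the mapping, and its part in these gaps was not tested. Windows under 0.0379 RPKM made up 21.4% of the middle in control (62 of 290), 6.00% of the ends (9 of 150) and 12.4% of the autosomes. In knockout the shares were closer together, at 7.59% of the middle (22 windows), 5.33% of the ends (8 windows) and 8.90% of the autosomes.

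Relative to library size, the knockout pool had more H3K27ac than control over most of the region. The ends together went from 0.579 to 0.699 RPKM, a ratio of 1.21 (1.18 to 1.24), and the middle a ratio of 1.15 (1.12 to 1.17). The proximal end had a ratio of 1.18 (1.15 to 1.22) and the distal end 1.23 (1.19 to 1.28). Over all autosomal windows the ratio of means was 1.04, and over chromosome 13 it was 0.992. The ratio of the ends over that of the middle was 1.05 (1.02 to 1.09), a difference in response between ends and middle that depended on where the boundaries were drawn. With ends 100 kb shorter on the inner side it was 0.998, and with ends 100 kb longer 1.15. The 500 kb before the region had a ratio of 0.784 (0.640 to 0.502 RPKM) and the 500 kb after it 1.06 (0.557 to 0.593 RPKM).

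By blocks of 50 kb, the ends were more uniform than the middle. Of the 15 blocks of the ends, 13 were higher in the knockout pool, against 53.5% of autosomal blocks (54.5% of those at or above the mean). The 2 exceptions were the first blocks of the region. Their 100 kb went from 0.475 to 0.269 RPKM, a ratio of 0.566 (0.518 to 0.617), like the lower ratio of the 500 kb before them. In the table the genes next to H2bc13 outside the cluster are olfactory receptor genes, but which genes lie in these mm9 windows was not determined. The other 13 blocks had ratios from 1.07 to 1.56. At the proximal end without its first 100 kb the ratio was 1.35 (1.31 to 1.40), with 0.492 RPKM in control and 0.666 RPKM in knockout. The 6 distal blocks had ratios between 1.07 and 1.37.

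**Figure D2:**
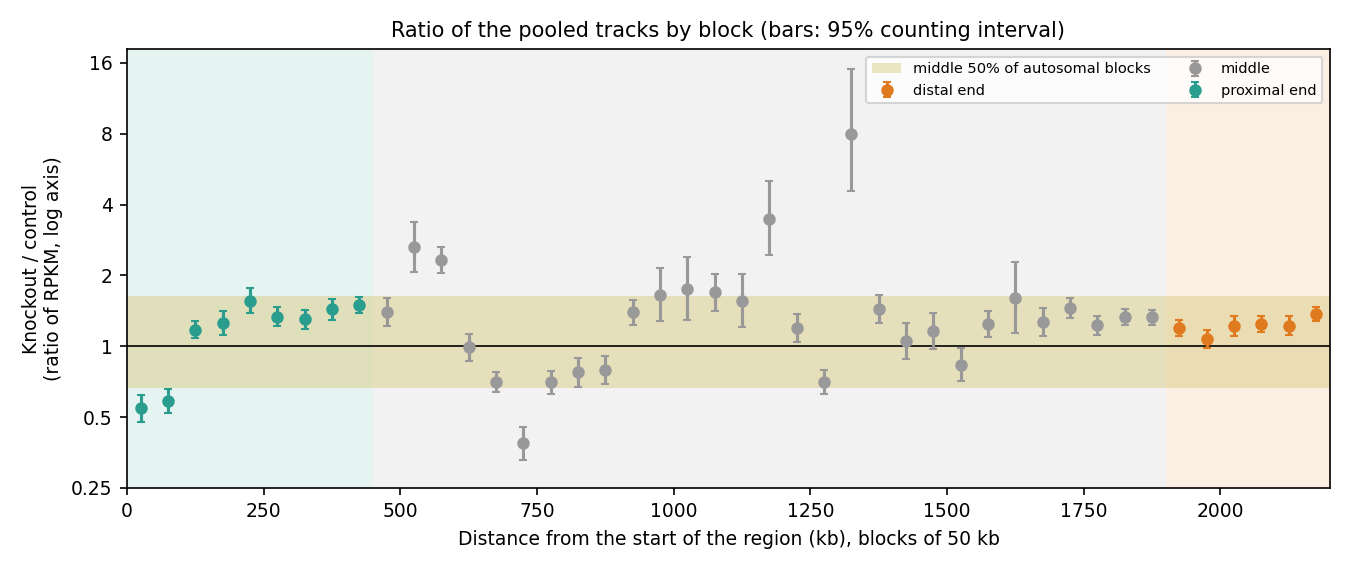
Ratio of knockout over control H3K27ac (ratio of RPKM, log axis) in each 50 kb block against distance from the start of the region (kb). Points are blocks, coloured by segment, bars are 95% counting intervals and the band holds the middle 50% of autosomal blocks (0.663 to 1.64); 13 of 15 blocks of the ends lie between 1.07 and 1.56, and blocks of the middle range from 0.386 to 7.99.

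In the middle, 21 of 29 blocks were higher in knockout and the ratios ranged from 0.386 to 7.99. The highest, in the block with 14 control reads, has a counting interval of 4.56 to 15.1. The middle's blocks with a lower ratio were mostly adjacent. The 5 blocks from 22350001 to 22600000 had ratios of 0.703, 0.386, 0.702, 0.776 and 0.793, and the block before them 0.988. They include some of the richest blocks of the middle in control, at 0.656 RPKM from 22350001 and 0.532 RPKM from 22450001. The block from 22950001 also had 0.486 RPKM in control and a ratio of 0.703. A rich block did not always have a lower ratio. Those from 23500001 (0.714 RPKM in control) and 23550001 (0.759 RPKM) had ratios of 1.33 and 1.32. Blocks poor in control lay above 1 too. The 5 blocks from 22650001 to 22900000, with 0.0274 to 0.130 RPKM in control, had ratios from 1.56 to 3.48.

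Because poor windows had higher ratios over the whole genome, windows were compared within classes of control level. The class uses the control value that also enters the ratio, so only sets of windows within a class are compared. Over the autosomes the ratio fell from class to class up to 1.5 RPKM, while at the ends and in the middle, with few windows per class, it did not fall throughout. For windows with 0.6 to 0.8 RPKM in control, the ratio of means was 1.20 for 33 windows of the ends, 0.896 for 21 windows of the middle and 0.933 for 60216 autosomal windows. For 0.8 to 1 RPKM it was 1.29 for 19 windows of the ends, 1.03 for 13 of the middle and 0.892 for the autosomes. From 1 to 1.5 RPKM it was 1.06 for 17 windows of the ends, 1.04 for 10 of the middle and 0.778 for the autosomes. The ends lay above the autosomes in each class from 0.1 to 1.5 RPKM. The middle lay below them in 4 of these 7 classes. Below 0.05 RPKM, a class with 74 windows of the middle and 9 of the ends, autosomal windows went from 0.0169 to 0.0647 RPKM and windows of the middle from 0.0173 to 0.0789 RPKM.

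**Figure D3:**
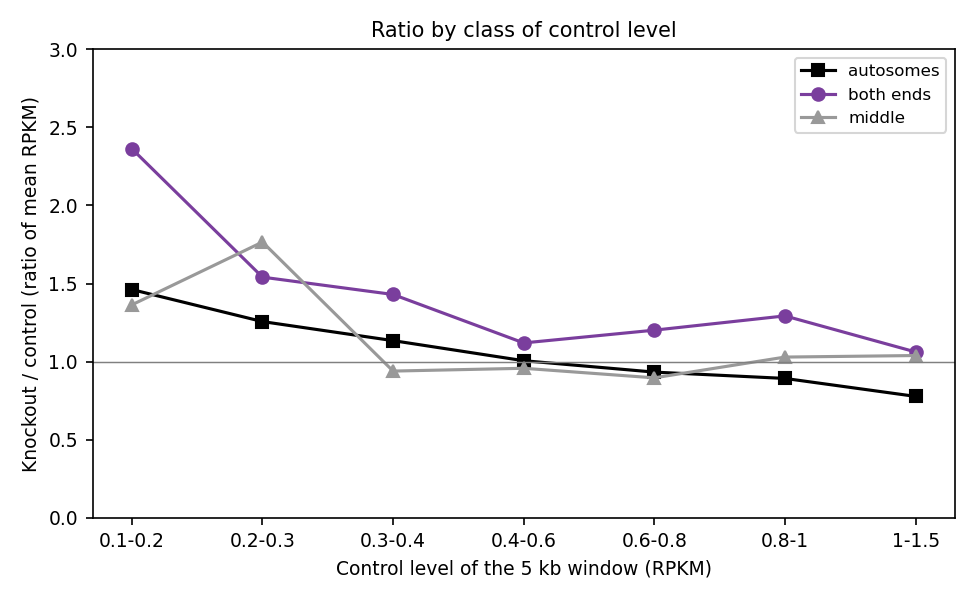
Ratio of mean RPKM in knockout over control (y axis) for 5 kb windows grouped by their control level (RPKM, x axis), for all autosomal windows, both ends of the region and its middle. The ends lie above the autosomes in all 7 classes shown, by 1.20 against 0.933 at 0.6 to 0.8 RPKM, and the middle lies close to the autosomes in the classes from 0.4 to 0.8 RPKM.

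Under the rule used, windows with large differences made up a smaller share of the region than of the autosomes. The rule required a 2-fold difference on the scale of log2(RPKM + 0.1) and a level, averaged over the pools, no lower than the mean of autosomes and X. At the ends, 111 windows met the level and 5 were at least 2-fold higher in knockout (4.50%), against 12.2% of autosomal windows (11.6% with X). Only 2 were at least 2-fold lower (1.80%), against 13.4% (15.2% with X). In the middle 90 windows met the level, of which 6 were higher and 4 lower. The median log2 ratio of the windows compared was 0.28 at the ends and 0.12 in the middle, against 0.07 over the autosomes. Windows higher in knockout by any amount numbered 104 of 150 at the ends (69.3%) and 184 of 290 in the middle (63.4%). Over the autosomes 49.98% of windows were higher. Without the first 100 kb, left out after its lower values were seen, 102 of 130 windows of the ends were higher. That share rises through the choice itself and is not set against the autosomes.

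**Figure D4:**
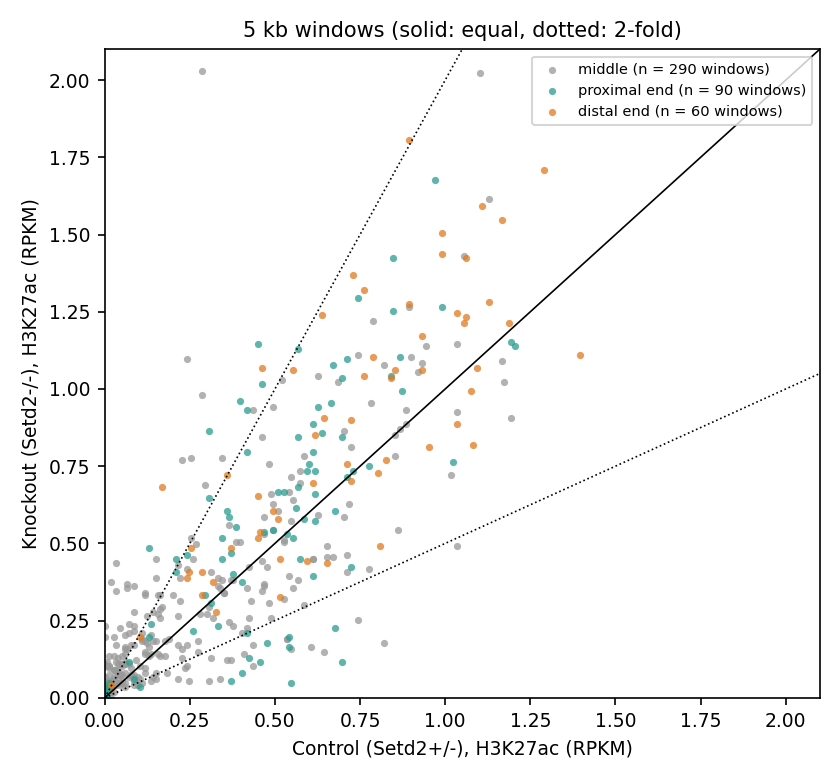
H3K27ac (RPKM) of each 5 kb window in the knockout pool (y axis) against the control pool (x axis), coloured by segment. The solid line marks equal values and the dotted lines a 2-fold ratio without pseudocount; most windows of the ends lie above the solid line and inside the dotted lines, and the window of the middle at 0.287 RPKM in control and 2.03 RPKM in knockout stands far above both.

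The 2 highest knockout windows of the region lay in the middle and are described further on. At the proximal end the highest knockout windows lay at its inner edge. They were 22140001 to 22145000, with 149 control reads (0.971 RPKM) and 246 knockout reads (1.68 RPKM), and 22135001 to 22140000, with 0.847 and 1.42 RPKM. The third, 22125001 to 22130000, had 0.743 and 1.29 RPKM. Their ratios were 1.68 to 1.74, and no single 100 bp bin held more than 10.5% of the knockout reads of any of them. All 3 belong to the run of 40 kb that ends at the boundary of the middle.

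At the distal end the highest knockout window was 23795001 to 23800000, with 137 control reads (0.893 RPKM) and 265 knockout reads (1.81 RPKM), a ratio of 2.02 (1.64 to 2.50). The window 23855001 to 23860000 was among the 3 highest in both pools, at 1.29 RPKM in control and 1.71 RPKM in knockout. The third, 23805001 to 23810000, had 1.11 and 1.59 RPKM. The highest control window of the region, 23775001 to 23780000, went the other way, from 214 reads (1.39 RPKM) to 163 reads (1.11 RPKM). Within it the difference was narrow: the 1 kb window from 23778001 had 76 control reads and 11 knockout reads, while the 1 kb window before it had 55 and 46. The next window, 23780001 to 23785000, differed by less than its counting error, at 1.19 and 1.21 RPKM.

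The highest control windows of the proximal end differed little between the pools. The window 21815001 to 21820000 had 1.21 and 1.14 RPKM in control and knockout, with a ratio of 0.944 (0.761 to 1.17). The window 21860001 to 21865000 had 1.19 and 1.15 RPKM. The remaining one, 21830001 to 21835000, was lower in knockout, at 1.02 and 0.763 RPKM, a ratio of 0.746 (0.580 to 0.956). Both neighbours of the first were among the windows called higher: 21810001 to 21815000 had 47 and 127 reads (log2 ratio 1.25), and 21820001 to 21825000 had 61 and 141 reads (1.09). The third called window, 22015001 to 22020000, had 69 and 168 reads (1.18). At the distal end the called windows were 23755001 to 23760000, with 26 and 100 reads (1.54), and 23870001 to 23875000, with 71 and 157 reads (1.06). Each of these 5 had at least 1 neighbour at or above the mean in both pools.

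The 2 windows of the ends called lower both lay in the first 100 kb. The window 21705001 to 21710000 had 107 control reads (0.697 RPKM) and 17 knockout reads (0.116 RPKM), a log2 ratio of -1.89, and 21770001 to 21775000 had 104 and 33 reads (-1.26). They belong to 2 runs at or above the mean in control alone, of 20 kb from 21700001 (0.560 to 0.119 RPKM) and of 25 kb from 21750001 (0.504 to 0.155 RPKM). At the distal end no window was called lower, and the lowest log2 ratio there was -0.62, at 23765001 to 23770000 (124 and 72 reads).

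In the middle the highest knockout level came from a pile-up. The window 22290001 to 22295000 had 44 control reads (0.287 RPKM) and 298 knockout reads (2.03 RPKM). Its log2 ratio was 2.46, and 149 of its 298 knockout reads fell in the 100 bp bin from 22293101 to 22293200, where control had 1 read. This was the fullest bin of the region in either pool; the fullest of the ends held 29 reads. When no bin counted for more than 10 reads, the ratio of the middle was 1.09 and that of the ends 1.15. The next windows of the middle by knockout level were 23550001 to 23555000 (1.10 and 2.02 RPKM) and 23560001 to 23565000 (1.13 and 1.61 RPKM), both in its last 200 kb, with at most 9.09% of knockout reads in 1 bin.

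Of the 6 windows of the middle called higher, 3 lay in its last 200 kb and 3 in the block from 22250001. The former include 23510001 to 23515000, with 37 and 161 reads (log2 ratio 1.81). The latter include the window of the pile-up and 22250001 to 22255000, with 44 and 144 reads (1.48). The 4 called lower all lay among the 5 adjacent blocks with lower ratios. The windows 22410001 to 22415000 (93 and 24 reads, log2 ratio -1.42) and 22415001 to 22420000 (126 and 26 reads, -1.73) are adjacent, within a run of 25 kb from 22405001 that had 0.542 RPKM in control and 0.151 RPKM in knockout. The window 22460001 to 22465000 had 99 and 22 reads (-1.58). The highest control window of the middle, 22960001 to 22965000, went from 1.19 to 0.906 RPKM.

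Rich windows, those reaching 3 times their pool's mean, were more numerous in knockout, at the ends and over the genome alike. At the ends they numbered 6 of 150 in control (4.00%) and 25 in knockout (16.7%), against 1.70% and 6.21% of autosomal windows (1.85% and 5.98% with X). Of the 25, 17 lay among the 60 windows of the distal end, where control had 4. The proximal end had 2 in control, both of which were rich in knockout too, and 8 in knockout, 4 of them consecutive from 22125001 to 22145000. In the middle they numbered 3 of 290 in control and 8 in knockout, and none was rich in both pools. Of the 8, 6 lay in its last 200 kb.

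The order of windows was similar in both pools. Across windows, the log2 values of control and knockout correlated with Pearson's r 0.814 over the 150 windows of the ends and 0.815 over the 290 of the middle, against 0.726 over the autosomes (Spearman's rho 0.791, 0.817 and 0.723). Within a pool, alternate 500 bp stretches of the same windows correlated with r 0.890 in control and 0.888 in knockout at the ends. In the middle these were 0.916 and 0.829. The values describe windows of the same 2 pools, which are neighbours and not independent replicates.

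The pools held 30694806 reads in control and 29367645 in knockout, recovered from the step between values, of which the region held 25999 and 29303. Reads of the knockout pool were spread over fewer bins, 8718653 against 11679676, and 52.9% of its bins held an even number of reads, against 43.0% in control. In the region, bins with over 10 reads numbered 17 in control and 96 in knockout at the proximal end, 23 and 98 at the distal end, and 18 and 129 in the middle. The part of this unevenness in the counts of rich and called windows was not tested, beyond the limit of 10 reads per bin, under which the ends had 24 rich windows in knockout and the middle 4. Many histone genes of the same family are close copies of one another. How reads matching several places were treated is not given in the sources used here. Pooling leaves differences between animals and differences between genotypes in 1 number, and they cannot be told apart.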

How the data were processed

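H3K27ac STAR ChIP-seq of full-grown oocytes was read from 1 track per genotype, each pooled by the authors from 2 replicates, per the labels. The deposited values are RPKM per 100 bp bin, a unit inferred from the values, with empty bins left out and taken as 0. Per the submitters' processing notes, the names mm9, Bowtie2 2.2.2 and STAR apply; how duplicates, read extension and input were handled is not given in the sources used here.

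Values are whole multiples of 1 read (0.326 RPKM in control, 0.341 in knockout) within 0.0051 RPKM in 100% and 99.9999771% of bins. Recovered reads times that value were averaged over 5 kb windows, which undoes the rounding. No count model or p-value was possible with 1 pool per genotype. Log2 ratios used a pseudocount of 0.1 RPKM. The 2-fold rule covered windows at or above the mean of autosomes and X, and rich windows had at least 3 times their pool's mean. Named windows were the 3 highest in each pool and the 3 highest and lowest log2 ratios of each segment, with at least 30 reads over both pools; runs, blocks and other windows given with values were chosen after their values were seen. Among the alternatives were other scalings, boundaries, window sizes, filters, pseudocounts and a limit of 10 reads per bin. The members, boundaries and lists were chosen with earlier results of these data known. Read recovery and calling were tested on simulated data with independent counts at an even rate within each window. That simulation does not cover the uneven reads of these pools. Python 3 with NumPy, pandas and SciPy was used. Gene order and promoters came from RefSeq tables (GRCm38.p6), in which 49 of 52 histone genes and 33 of 36 receptor genes had a promoter.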

Additional observations from a re-analysis of the deposited data

How the results depend on the processing

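No paired analysis was possible because the replicates of each genotype are pooled in 1 track, and for the same reason leaving out single replicates was not run. The higher level of the ends over the middle held under every alternative run. In control the ratio was 3.48 over medians of windows, 1.71 with ends 100 kb shorter, 2.12 with ends 100 kb longer, 2.09 without the first 100 kb of the region, 2.50 without the last 200 kb of the middle and 2.57 without both. In knockout these were 3.54, 1.71, 2.43, 2.34, 2.83 and 3.10. The alternatives that leave out the first 100 kb or the last 200 kb of the middle were chosen after seeing the data.

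The ratio of knockout over control stayed above 1 at the ends and in the middle under each alternative. At the ends it was 1.17 with equal autosomal means, 1.25 with the sum over the poorer autosomal windows equal, 1.15 with at most 10 reads per bin, 1.18 and 1.24 with ends 100 kb shorter and longer, and 1.29 without the first 100 kb. In the middle it was 1.11, 1.19 and 1.09 under the first 3 of these, 1.18 and 1.08 with ends shorter and longer, and 1.07 without its last 200 kb. The ratio of these ratios turned to 0.998 with shorter ends. It was 1.15 with longer ends, 1.02 over medians, 1.12 without the first 100 kb, 1.13 without the last 200 kb of the middle and 1.20 without both. The blocks of the ends that were higher numbered 13 of 15 under both other scalings.

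Counts of called windows moved with each setting of the rule. At the ends, windows called higher were 9 with a pseudocount of 0.01, 0 with 0.5, 2 with a filter at 2 times the mean, 21 with a 1.5-fold rule, 30 of 268 in windows of 2 kb, 0 of 59 in windows of 10 kb and 2 with at most 10 reads per bin. Those called lower were 0 with a pseudocount of 0.5, 10 without a filter, 0 with the higher filter, 4 with the 1.5-fold rule, 12 at 2 kb and 1 at 10 kb. In the middle, those called higher were 2 with a pseudocount of 0.5, 24 without a filter, 1 with the higher filter, 15 with the 1.5-fold rule and 27 at 2 kb. Those called lower were 0, 14, 0, 8 and 11 under the same settings and 1 at 10 kb. Rich windows of the ends numbered 40 in control and 62 in knockout at 2 times the mean and 0 in both at 5 times. In the middle they were 26 and 37 at 2 times, 0 and 2 at 5 times, and 4 in knockout under the limit of 10 reads per bin. The cause of these shifts was not tested beyond the settings themselves. The autosomal shares under these settings were not computed. Whether called windows stay a smaller share of the region than of the autosomes under them was therefore not tested. Of 132 values of 33 named windows under the alternatives, 16 moved beyond their counting error and none changed the direction of a called window.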
